A study of Mus musculus with 12 samples.

Results

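The BCL2 family decides whether a cell keeps its mitochondria intact or undergoes apoptosis. The 10 genes Bcl2, Mcl1, Bcl2l1, Bax, Bak1, Bcl2l11, Bid, Bad, Bbc3 and Pmaip1 were taken by symbol from a table of 43279 genes, and all 10 had a row. They were measured in blood stem and progenitor cells of the bone marrow. Adult naive wild-type C57BL/6 mice gave 6 libraries and adult naive Osmr-/- mice, which lack the oncostatin M receptor gene, gave 5. Per the labels, each library holds polyadenylated RNA of 1000 cells from a different mouse, sorted as negative for lineage markers, FLT3 and CD48 and positive for KIT and SCA1. The deletion is given as a plain gene knock-out, so the sorted cells carry it as well as their surroundings, and no background strain is named for it. The series set out to learn how the loss of OSMR signaling around stem cells affects them. The Osmr-/- animal numbered 4 was not analysed here.

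The protein family has 3 kinds of member. BCL2, MCL1 and BCL-XL (the product of Bcl2l1) hold the mitochondrial outer membrane closed, while BAX and BAK, once active, form pores in it that release cytochrome c and start the caspases. The BH3-only proteins BIM (Bcl2l11), BID, BAD, PUMA (Bbc3) and NOXA (Pmaip1) sense stress and either block the guardians or activate the pore formers. Blood stem cells are known to depend on MCL1 for survival. Much of the control of these proteins lies in phosphorylation, cleavage and turnover, which messenger RNA does not show.

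Values are normalised counts, which are reads per gene divided by a size factor for each library. Library totals ran from 9.89 to 22.1 M reads in wild type (M is the SI prefix mega) and from 9.50 to 11.2 M in Osmr-/- (exact two-sided permutation test, p = 0.119). Osmr itself had 0 to 8 reads per library in wild type and 0 to 2 in Osmr-/-, too few to check the genotype labels. Kit ran from 3312 to 5183 normalised counts and Ly6a, the SCA1 gene, from 3297 to 9513. Flt3 (229 to 735) and Cd48 (275 to 1446) RNA was present in all 11 libraries although the sort removed cells with these proteins on their surface. All 10 genes of a stem cell list had reads in every library, and the lymphoid genes Il7r and Rag1 had none in any. The second principal component, with 16.5% of the variance, placed all libraries numbered 1 to 3 (16.0 to 84.0) apart from those numbered 4 to 6 (-62.6 to -39.5). The labels do not say what these numbers stand for, so each limma fold change is also given within libraries 1 to 3 and within libraries 4 to 6. In Osmr-/- library 3, the granulocyte gene S100a8 reached 10779.9, against 19.4 to 346 in the other libraries. Without that library, the log2 fold changes given below were 0.23 for Bcl2, -0.16 for Mcl1, -1.50 for Bcl2l1, -0.76 for Bax, 1.10 for Bak1, -1.08 for Bcl2l11, -0.39 for Bid and -0.36 for Bad. In that fit limma called none of them, and 1 was at an unadjusted p under 0.05, against 1800 of the 13358 genes tested. In bulk RNA such as this, fewer cells of a type and less RNA per cell cannot be told apart.

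None of the survival genes passed the test for a difference between genotypes. In Osmr-/- cells, Bax, Bcl2l11, Bcl2l1 and Bad had lower means and Bak1 and Bcl2 had higher means. Mcl1 and Bid had the log2 fold changes smallest in size. The test was limma on log2(normalised count + 1), fitted over the 13358 genes that reached 10 normalised counts in 5 or more libraries. Its threshold was a Benjamini-Hochberg adjusted p under 0.05. Of the 10 members, 8 passed the filter on low counts and 0 were called by limma or edgeR, and 0 of the 7 with a DESeq2 adjusted p were called by DESeq2. Over all genes tested, limma called 0.00749% higher and 0.015% lower in Osmr-/-, so calls were rare for any gene. At an unadjusted p under 0.05, limma marked 2 of the 8 members, Bax and Bcl2l11, against 18% of all genes tested. Both had lower values in Osmr-/-, the direction of 10.5% of all genes at that level, and 7.5% had higher values. edgeR and DESeq2 each marked 1 member at that level, against 2060 and 2304 of the 13358 genes. No member had all Osmr-/- libraries on one side of all wild-type libraries, which 2.52% of all genes did (1.09% higher and 1.42% lower in Osmr-/-). The log2 fold change of Osmr-/- over wild type was below 0 for 6 of the 8 tested members and above 0 for Bcl2 and Bak1. Its median was -0.48 over these 8 and -0.05 over all genes tested, of which 53.2% lay below 0. Members that failed the filter are not in these counts.

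**Figure D1:**
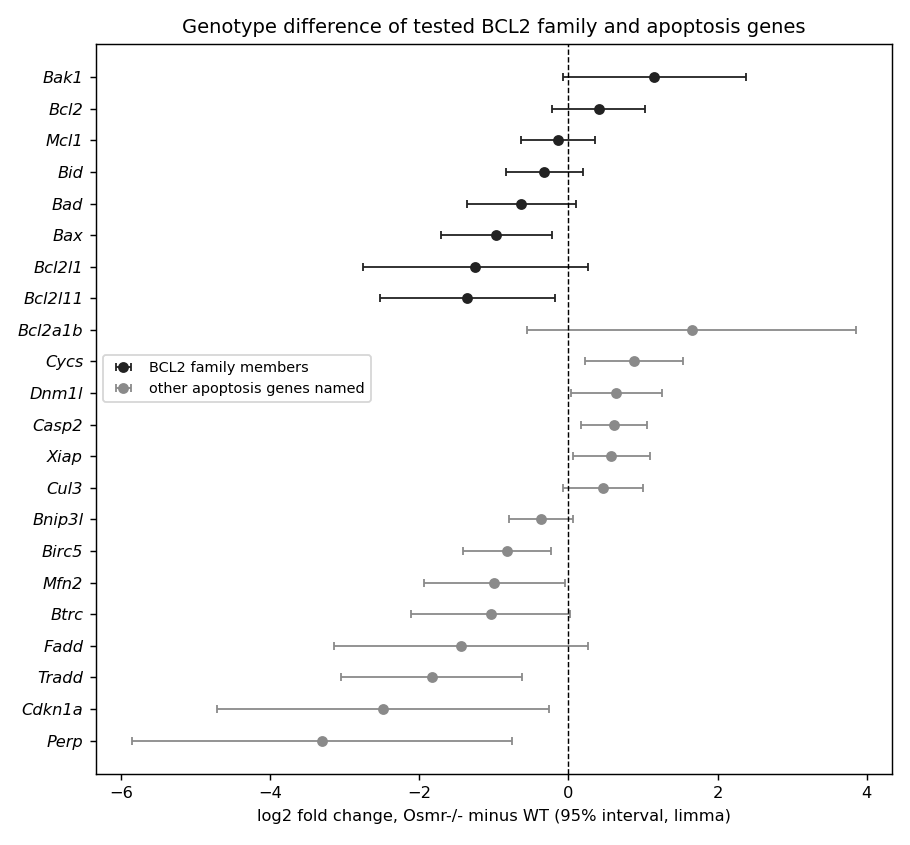
The horizontal axis is the limma log2 fold change of Osmr-/- over wild type on the log2(normalised count + 1) scale, and each point is a gene with its 95% interval. Among the 8 tested survival genes the intervals of Bax (-1.71 to -0.23) and Bcl2l11 (-2.53 to -0.18) lie below 0 and the other 6 span it; the other points are 14 genes of the wider pathway.

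None of the guardians Bcl2, Mcl1 and Bcl2l1 passed the adjusted test, and each of their 95% intervals spanned 0. Bcl2 (GRCm38, chr1:106538178-106714274, minus strand) encodes the founding member of the family. Its lowest, median and highest wild-type libraries held 289, 399.9 and 629 normalised counts. The Osmr-/- libraries 1, 2, 3, 5 and 6, in that order here and below, held 392, 614, 903, 443 and 536. The groups overlapped, and only Osmr-/- library 3 lay above the highest wild-type library. The means were 435 ± 138 (SD, n = 6) and 578 ± 201 (SD, n = 5), and the log2 fold change was 0.40 (SE 0.29, 95% interval -0.22 to 1.03, limma adjusted p = 0.486). The difference was 0.87 within libraries 1 to 3 and -0.13 within libraries 4 to 6, so its direction depended on the set. Exons of the antisense gene D630008O14Rik overlap 6.09% of the exon bases of Bcl2.

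Mcl1 (chr3:95658788-95663176, plus strand) encodes a short-lived guardian that has to be made continually. Wild-type libraries held 825 at the lowest, 1274 at the median and 1873 at the highest, and the Osmr-/- libraries held 1074, 893, 1156, 1225 and 1155. All 5 Osmr-/- libraries fell inside the wild-type range. The means were 1257 ± 383 (SD, n = 6) and 1101 ± 128 (SD, n = 5), and the log2 fold change was -0.14 (95% interval -0.64 to 0.35, limma adjusted p = 0.783). It was 0.10 within libraries 1 to 3 and -0.35 within libraries 4 to 6.

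Bcl2l1 (chr2:152780668-152831728, minus strand) makes BCL-XL, which keeps maturing red cells and platelets alive. Wild-type libraries held 26.9 at the lowest, 88.4 at the median and 205 at the highest, and the Osmr-/- libraries held 77.0, 9.46, 74.8, 84.4 and 12.7. Osmr-/- libraries 2 and 6 lay below every wild-type library and the other 3 lay within the wild-type range. The means were 104 ± 61.5 (SD, n = 6) and 51.7 ± 37.2 (SD, n = 5), and the log2 fold change was -1.25 (95% interval -2.75 to 0.26, limma adjusted p = 0.374). Within the 2 sets of numbers it was -0.51 and -2.03. The summed normalised count of 15 erythroid genes ran from 19855 to 62801 in wild type and from 13300.5 to 20099.7 in Osmr-/-. The groups thus overlapped over all libraries, but not within either set of numbers. Within libraries 1 to 3 the sum ran from 55476 to 62801 in wild type and from 13958 to 20099.7 in Osmr-/-. Within libraries 4 to 6 it ran from 19855 to 22398 in wild type and was 15100 and 13300.5 in Osmr-/-. Osmr-/- library 2, which had the lowest Bcl2l1, had the highest erythroid sum of its group (20099.7). Osmr-/- library 6, which had the next lowest Bcl2l1, had the lowest erythroid sum of all libraries (13300.5). Of the 13 erythroid genes tested, 12 had a log2 fold change below 0, and none of the 15 was at 0 in all libraries. The part of these markers in the Bcl2l1 values was not tested.

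Promoter stretches of Bcl2 and Mcl1, the 2 guardians with the highest levels per exon length, are shown because they differ in the number of GC boxes, a common promoter motif. The stretches are from RefSeq, GRCm38.p6, written 5′ to 3′ on the gene's strand, and capitals mark GGGCGG or its reverse complement. The Bcl2 stretch, chr1:106714391-106714530 on the minus strand, ends 101 bases before the RefSeq start, and the Mcl1 stretch, chr3:95658581-95658720 on the plus strand, ends 1 base before it.
Bcl2: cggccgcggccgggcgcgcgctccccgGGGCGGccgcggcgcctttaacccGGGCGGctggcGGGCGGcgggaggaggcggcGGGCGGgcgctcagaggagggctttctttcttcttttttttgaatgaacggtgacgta
Mcl1: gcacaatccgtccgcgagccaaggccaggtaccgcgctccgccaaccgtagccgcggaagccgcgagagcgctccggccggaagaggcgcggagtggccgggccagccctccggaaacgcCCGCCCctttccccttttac
RefSeq windows, from 250 bases before to 50 after a start, were at hand for 9 of the 10 members. GGGCGG, searched on both strands, was found in 10 of the 15 windows of these members, and in 35.7% of all 32841 windows. It was in at least 1 window of 7 of the 9 members. It was not found in the windows of Bcl2l1 and Bak1. TTCNNNGAA, the palindrome that STAT proteins downstream of cytokine receptors bind, was in 0 of the 15 member windows and in 8.30% of all windows. A match describes letters only, and no match says nothing about a factor.

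**Figure D2:**
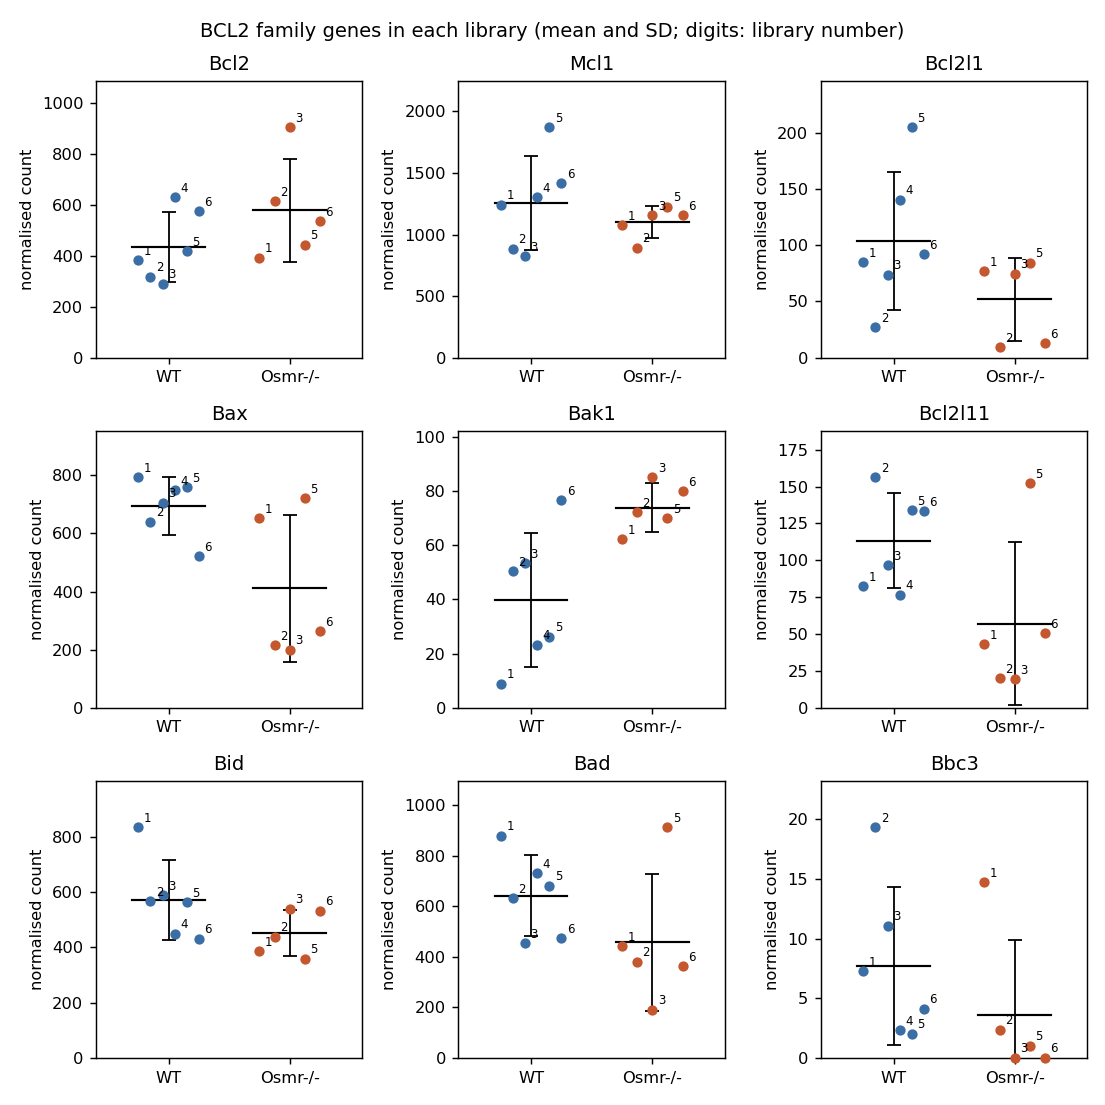
Each panel is 1 gene and the vertical axis is the normalised count on a linear scale; each point is 1 library with its number from the labels, and the line and bar are the mean and SD of 6 wild-type and 5 Osmr-/- libraries. In the Bax panel, Osmr-/- libraries 2, 3 and 6 (215, 199.8 and 264) sit below all wild-type libraries, whereas libraries 1 and 5 (651 and 722) sit among them; Pmaip1 is left out because it has no reads.

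The pore-forming genes Bax and Bak1 had means that differed in opposite directions, and neither passed the adjusted test. Bax (chr7:45461697-45466898, minus strand) held 521 at the lowest, 727 at the median and 793 at the highest in wild type. The Osmr-/- libraries held 651, 215, 199.8, 722 and 264. Osmr-/- libraries 2, 3 and 6 were below every wild-type library, and libraries 1 and 5 were inside the wild-type range. The means were 695 ± 99.9 (SD, n = 6) and 410.5 ± 254 (SD, n = 5). The log2 fold change was -0.97 (SE 0.35, 95% interval -1.71 to -0.23, limma unadjusted p = 0.0139 and adjusted p = 0.179). On the log2 scale of the test this is 1.96-fold lower in Osmr-/- (95% interval 1.17 to 3.27), which is not the ratio of the 2 means above. The log2 fold change was -0.77 by edgeR and -0.76 by DESeq2, which is smaller in size. An exact two-sided permutation test over the libraries gave p = 0.0303 for this single gene, without adjustment. The SD of the log2 values was 0.22 in wild type and 0.89 in Osmr-/-, since the Osmr-/- libraries fell into a low and a high level. The difference was -1.22 within libraries 1 to 3 and -0.61 within libraries 4 to 6, so its direction was the same in both. Exons of Gm45808 on the same strand overlap 12.2% of the exon bases of Bax, and Gm45808 has no row in the table used here.

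The summed normalised count of 15 genes of the G2 and M phases, markers of dividing cells, was 7174, 5288 and 5466 in the low-Bax Osmr-/- libraries 2, 3 and 6. It was 6024 and 11344 in the high-Bax libraries 1 and 5, and 10285 to 14726 in wild type, so the sums of the low-Bax and high-Bax libraries overlapped. None of the 15 was at 0 in all libraries, and 14 of them had a log2 fold change below 0. The part of these markers in the Bax values was not tested.

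Bax is a known target of p53, and its promoter window was the only one among the 9 members that held a p53 half-site. The stretch below is from RefSeq, GRCm38.p6, chr7:45466999-45467138 on the minus strand, covering 240 to 101 bases before the RefSeq start. Capitals mark the half-site, 201 to 192 bases before the start.
Bax: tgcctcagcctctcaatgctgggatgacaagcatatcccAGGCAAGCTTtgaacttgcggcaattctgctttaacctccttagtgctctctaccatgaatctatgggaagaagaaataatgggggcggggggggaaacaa
The same half-site search on both strands matched 1 of the 15 member windows and 8.36% of all windows. It is a description of the sequence, with no evidence here that p53 binds it.

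Bak1 (chr17:27019810-27029009, minus strand) held 8.84 at the lowest, 38.3 at the median and 76.5 at the highest in wild type, and 62.3, 72.1, 85.1, 70.0 and 80.0 in Osmr-/-. All 5 Osmr-/- libraries lay above the wild-type median, and 2 of them lay above the highest wild-type library. The means were 39.8 ± 24.8 (SD, n = 6) and 73.9 ± 8.87 (SD, n = 5), and the log2 fold change was 1.15 (95% interval -0.08 to 2.39, limma unadjusted p = 0.0647 and adjusted p = 0.309). It was 1.29 within libraries 1 to 3 and 1.03 within libraries 4 to 6. Exons of Bak1 overlap those of Ggnbp1 on the opposite strand, which makes its count uncertain. The overlap takes up to 18.2% of the exon bases of Bak1, and no source used here gives the strand setting of the counting. Ggnbp1 had means of 74.3 ± 34.4 (SD, n = 6) and 142 ± 42.1 (SD, n = 5), a log2 fold change of 1.03 with an adjusted p of 0.253 by limma. Its difference was 1.04 within libraries 1 to 3 and 0.92 within libraries 4 to 6. Reads on the shared bases cannot be told apart without strand.

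Among the 3 BH3-only genes tested, Bcl2l11 had the lowest log2 fold change, with 1 Osmr-/- library that stood apart. Bcl2l11 (chr2:128126038-128162547, plus strand) makes BIM, which binds all the guardians and is induced when cytokine signaling is withdrawn. Wild-type libraries held 76.8 at the lowest, 115 at the median and 156 at the highest, and the Osmr-/- libraries held 43.0, 20.1, 19.3, 152 and 50.7. Osmr-/- libraries 1, 2, 3 and 6 were below every wild-type library, while library 5 was close to the highest. The means were 113 ± 32.4 (SD, n = 6) and 57.1 ± 55.0 (SD, n = 5), and the log2 fold change was -1.36 (SE 0.55, 95% interval -2.53 to -0.18, limma unadjusted p = 0.0266 and adjusted p = 0.227). The difference was -2.03 within libraries 1 to 3 and -0.33 within libraries 4 to 6, where library 5 lies. Osmr-/- library 5 was also the one with the highest G2 and M marker sum of its group, given above with Bax, and the part of that in Bcl2l11 was not tested.

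Bad (chr19:6941861-6951899, plus strand) encodes a BH3-only protein that growth factor signals hold inactive by phosphorylation. Wild-type libraries held 454 at the lowest, 656 at the median and 878 at the highest, and the Osmr-/- libraries held 441, 379.6, 191, 911 and 363. Osmr-/- libraries 1, 2, 3 and 6 lay below all wild-type libraries and library 5 lay above all of them. The means were 641 ± 160.3 (SD, n = 6) and 457 ± 270.3 (SD, n = 5), and the log2 fold change was -0.63 (95% interval -1.36 to 0.10, limma unadjusted p = 0.0840 and adjusted p = 0.348). It was -0.99 within libraries 1 to 3 and -0.10 within libraries 4 to 6. Exons of Gpr137 on the opposite strand overlap 20.5% of the exon bases of Bad, which makes its count uncertain as for Bak1.

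Bid (chr6:120891930-120916853, minus strand) encodes the member that caspase-8 cuts to pass a death receptor signal on to mitochondria. Wild-type libraries held 431 at the lowest, 564 at the median and 833 at the highest, and the Osmr-/- libraries held 386, 438, 540.0, 359 and 533. The groups overlapped. The means were 571 ± 144 (SD, n = 6) and 451 ± 82.8 (SD, n = 5), and the log2 fold change was -0.33 (95% interval -0.84 to 0.19, limma adjusted p = 0.503), and -0.53 and -0.13 within the 2 sets. Exons of Bcl2l13, another family gene, overlap 17.7% of those of Bid on the opposite strand, so the count of Bid is uncertain too.

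The 2 BH3-only genes best known as p53 targets, Bbc3 and Pmaip1, were at or near the detection floor. Bbc3 (chr7:16308393-16318205, plus strand) had 57 reads in all wild-type libraries together and 16 in the Osmr-/- libraries, and it failed the filter. Its normalised counts ran from 2.02 to 19.3 in wild type, with 14.7, 2.36, 0, 1.03 and 0 in Osmr-/-. The exact two-sided permutation test over the libraries gave p = 0.126. Of the 16 Osmr-/- reads, 13 came from library 1. Pmaip1 had 0 reads in all 11 libraries, out of 133.8 M reads in all. A count of 0 allows up to 3 reads, which is 1.56 to 3.87 normalised counts depending on the library. These limits cover counting error only.

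The 3 Osmr-/- libraries with the lowest Bax, numbers 2, 3 and 6, were also the 3 with the lowest Bad. Library 1 was below all wild-type libraries in Bad but not in Bax. The ratio of Bcl2 to Bax normalised counts, chosen after the values were seen and given without a test, combines a guardian and a pore former. In wild type it was 0.409 at the lowest, 0.524 at the median and 1.10 at the highest, and in Osmr-/- it was 0.602, 2.85, 4.52, 0.613 and 2.03. Its log2 had a mean of -0.72 ± 0.55 (SD, n = 6) in wild type and 0.65 ± 1.32 (SD, n = 5) in Osmr-/-. Osmr-/- libraries 2, 3 and 6 were above the highest wild-type library and libraries 1 and 5 were inside the wild-type range.

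**Figure D3:**
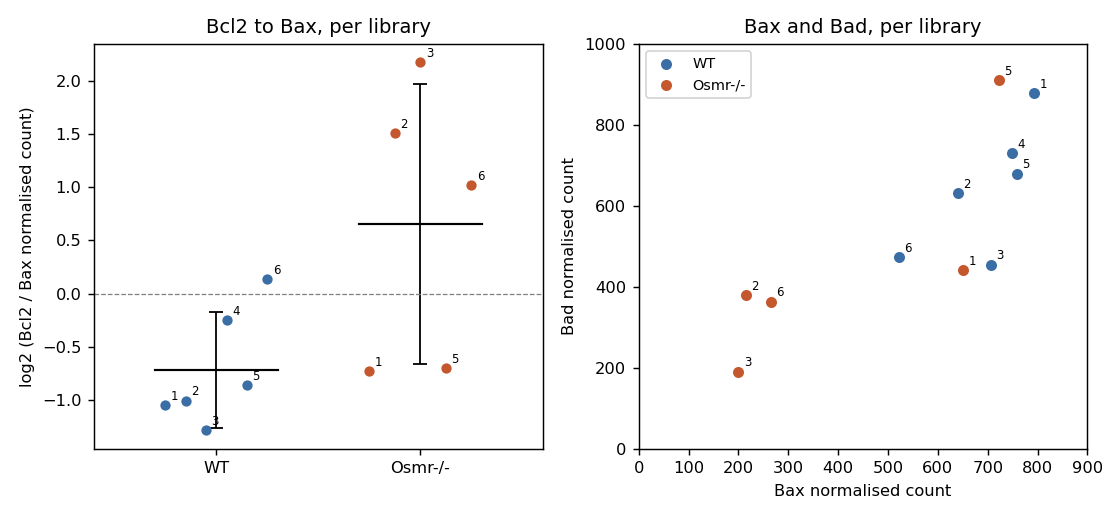
The left panel shows log2 of the ratio of Bcl2 to Bax normalised counts in each library, with mean and SD by genotype, and the right panel shows Bax against Bad normalised counts, 1 point per library. Osmr-/- libraries 2, 3 and 6 have the highest ratios (2.85, 4.52 and 2.03) and are the lowest 3 Osmr-/- libraries in both Bax and Bad.

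To compare genes with each other, normalised counts were divided by the length of all annotated exons in kb (kilobases). Over all 11 libraries Bax had the highest level with 359 ± 146 (SD) per kb, next to Mcl1 with 347 ± 86.0 per kb. These neighbours differed by less than the larger of their SDs, and Bax was above Mcl1 in 6 of 11 libraries. Bad followed with 218 ± 88.5 per kb and Bid with 146 ± 36.8, again within the larger SD of each other. Bcl2 had 54.6 ± 19.3 per kb, below Mcl1 and Bid in all 11 libraries. Bak1 (23.0 ± 10.6 per kb), Bcl2l1 (17.5 ± 12.3) and Bcl2l11 (10.9 ± 6.35) formed a low group whose neighbours were within the larger SD of each other. Bbc3 had 2.75 ± 3.07 per kb and Pmaip1 had none. Mcl1 was thus the guardian with the highest level, and Bax the pore former with the highest level. In Osmr-/- alone Mcl1 had the highest mean per kb, 322, and Bax the next, 260.5. The order depends on the length used. With the length of 1 transcript per gene, the longest or the one with the longest coding sequence, Bax came before Mcl1 in Osmr-/- too (373 and 473, against 322). With these lengths Bad also came before Mcl1 and Bcl2l1 before Bak1.

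**Figure D4:**
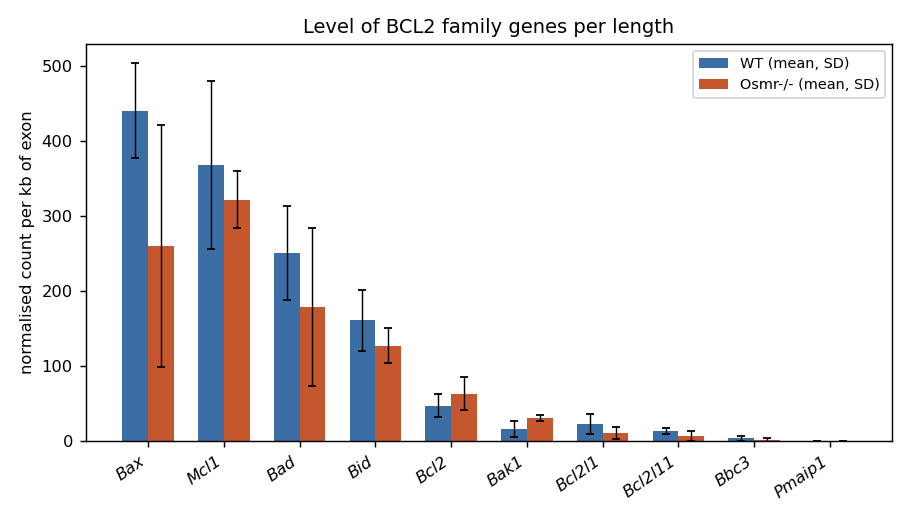
The vertical axis is the normalised count per kb of annotated exon, with 1 bar per gene and genotype, bars starting at 0 and error bars of 1 SD over 6 wild-type or 5 Osmr-/- libraries. Bax, Mcl1, Bad and Bid have the 4 highest bars in both genotypes, and in Osmr-/- the bar of Mcl1 (322) is above that of Bax (260.5), an order that turns with the length of 1 transcript per gene (Bax 373 or 473).

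The wider pathway was described by 7 lists of 82 genes, of which 73 were tested. By limma, 0 of the 73 were called, and 11 (15.1%) had an unadjusted p under 0.05, against the 18% of all genes. Of the 73, 27 had a log2 fold change above 0 and 46 below, with a median of -0.17. All Osmr-/- libraries were on one side of all wild-type libraries for 2 of the 73, Casp2 and Tradd, which is near the 2.52% of all genes. DESeq2 gave 2 calls, both lower in Osmr-/-, among the 61 list genes with a DESeq2 adjusted p. Over all 9982 genes with one, DESeq2 called 1.44% higher and 3.26% lower, and 2 of 61 lower is near that share. The 2 genes were the adaptor gene Tradd (log2 fold change -1.90, DESeq2 adjusted p = 0.0246) and the executioner caspase gene Casp6 (-1.38, DESeq2 adjusted p = 0.0461), the latter named after its value was seen.

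Of the other 15 BCL2 family genes, 7 were tested, with 2 above and 5 below 0 and a median of -0.37. Bnip3l, which marks mitochondria for removal in maturing red cells, had a log2 fold change of -0.37 (adjusted p = 0.356). Bcl2a1b, a guardian, had 1.65 (adjusted p = 0.419). It was near the floor, with 0 to 24 reads per library, 39 in all wild-type libraries together and 50 in the Osmr-/- libraries. Its near-identical copies also make its count uncertain. Downstream of the pore, all 14 genes of the apoptosome and the caspases were tested, with 3 above and 11 below 0 and a median of -0.23. Casp2, a caspase that responds to DNA damage, had 1242 ± 225 (SD, n = 6) normalised counts in wild type and 1893 ± 341 (SD, n = 5) in Osmr-/-, a log2 fold change of 0.61 (limma adjusted p = 0.156). Cycs, the gene of cytochrome c, had 2318 ± 1142 (SD, n = 6) and 4029 ± 1132 (SD, n = 5), a log2 fold change of 0.88 (limma adjusted p = 0.172). Within libraries 1 to 3 and then 4 to 6, the differences were -0.61 and -0.12 for Bnip3l, 0.65 and 2.81 for Bcl2a1b, 0.45 and 0.84 for Casp2, and 0.74 and 0.86 for Cycs.

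Of the 6 inhibitor of apoptosis and other caspase inhibitor genes tested, 5 were above and 1 below 0, with a median of 0.40. Xiap, which blocks the executioner caspases, had 1282 ± 518 (SD, n = 6) normalised counts in wild type and 1821 ± 219 (SD, n = 5) in Osmr-/- (log2 fold change 0.58, limma adjusted p = 0.240). Birc5, the survivin gene and itself a gene of dividing cells, was the one below 0, with 2139 ± 549 (SD, n = 6) and 1252 ± 536 (SD, n = 5), a log2 fold change of -0.82 (limma adjusted p = 0.156). Of the 7 death receptor and adaptor genes, 1 was above and 6 below 0, with a median of -0.77. Tradd, an adaptor of the TNF receptor, had 189.7 ± 132 (SD, n = 6) and 50.9 ± 28.7 (SD, n = 5), a log2 fold change of -1.84 (limma adjusted p = 0.140). Fadd, which recruits caspase-8, had a log2 fold change of -1.44 (limma adjusted p = 0.362). In the same order of sets, the differences were 0.90 and 0.26 for Xiap, -1.18 and -0.43 for Birc5, -2.84 and -0.64 for Tradd, and -2.33 and -0.11 for Fadd.

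Upstream, 18 of 19 transcription factor and p53 target genes were tested, with 7 above and 11 below 0 and a median of -0.12. The p53 targets Perp (-3.31, limma adjusted p = 0.181) and Cdkn1a (-2.49, limma adjusted p = 0.239) were low and uneven, with single libraries far from the rest. All 12 genes for turnover of MCL1 and BH3-only proteins were tested, with 6 above and 6 below 0 and a median of 0.01. Among them Btrc, a ubiquitin ligase subunit, had a log2 fold change of -1.04 (limma adjusted p = 0.289) and Cul3, a ligase scaffold, had 0.47 (limma adjusted p = 0.348). All 9 genes of the mitochondrial outer membrane channel and of fission and fusion were tested, with 3 above and 6 below 0 and a median of -0.33. Dnm1l, the fission motor, had a log2 fold change of 0.64 and Mfn2, a fusion gene, had -1.0, both with a limma adjusted p of 0.258. Within libraries 1 to 3 and then 4 to 6, the differences were -4.56 and -1.62 for Perp, -1.64 and -3.56 for Cdkn1a, -1.51 and -0.59 for Btrc, 0.56 and 0.26 for Cul3, 0.73 and 0.56 for Dnm1l, and -0.44 and -1.61 for Mfn2. All 14 named pathway genes had the same direction in both sets, with unequal sizes. They were chosen by lowest p over both sets together, which favours such agreement, so it is no separate support.

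The genes most like 3 of the members were sought among 10747 genes, by Pearson's r of log2 values over all 11 libraries. These values are a description that shares library, genotype and depth. For Mcl1 they were Neurl3 (r = 0.90) and Cmtm6 (r = 0.90). For Bax they were Zfyve19 (r = 0.951) and Trappc3 (r = 0.945), and for Bad they were Isoc1 (r = 0.946) and Rassf5 (r = 0.940).

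The authors' deposited table, from DESeq2, called no member either. In the authors' deposited table, with signs turned to Osmr-/- over wild type, the log2 fold change of Bax was -0.66 (adjusted p = 0.234) and that of Bcl2l11 was -0.75 (adjusted p = 0.301). In the authors' deposited table, Bak1 had 0.71 (adjusted p = 0.316), Bcl2l1 had -0.69 (adjusted p = 0.406), Bcl2 had 0.37 (adjusted p = 0.493) and Bad had -0.43 (adjusted p = 0.501). Mcl1 (-0.18, adjusted p = 0.741) and Bid (-0.32, adjusted p = 0.437) had the smallest values in the authors' deposited table. In the authors' deposited table, 4.46% of the 13802 genes with an adjusted p passed 0.05.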

How the data were processed

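Per the submitters' processing notes, reads were handled with Trimmomatic 0.36.6, FastQC 0.72, HISAT2 2.1.0, HTSeq 0.9.1, the DESeq2 wrapper 2.11.40.6 and build mm10. No source used here names the annotation or the strand setting. The deposited expression signal is a count divided by a DESeq2 size factor; dividing by each library's step gave whole reads for 100% of values within 1e-06. The deposited log2 values are regularised log and variance stabilised values. The deposited comparison table holds mean signal, log2 fold change and standard error, Wald score, p-value and adjusted p-value, per its values, since it has no header.

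Normalised counts were tested as log2(value + 1) with limma 3.58.1 (lmFit, eBayes with trend, genotype alone) in R 4.3.3, with two-sided p-values adjusted by Benjamini-Hochberg over the 13358 genes with at least 10 in at least 5 of 11 libraries. Alternatives used the recovered counts with edgeR 4.0.16 and with DESeq2 1.42.0, other pseudocounts, filters and scalings, and left out each library. The added 1 shrinks the log2 fold changes of low genes, but those given here were not smaller than by edgeR and DESeq2 for the low members. Bcl2l11 had -1.36 by limma, against -0.99 by edgeR and -0.98 by DESeq2. In the same order Bcl2l1 had -1.25, -1.02 and -1.01, and Bak1 had 1.15, 0.89 and 0.90. Gene coordinates and exon lengths are GENCODE M21 on GRCm38, and promoters are RefSeq. Named pathway genes were the 2 of lowest p per list. The members and lists were chosen with earlier results of these data known. Reads amplified without molecular identifiers can share a molecule, so floors cover counting error only.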

Additional observations from a re-analysis of the deposited data

Results flagged for a closer look

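Within each genotype, the highest or lowest library was set against the others for 50 groups of values, and 9 groups had a library far from the rest. The rule would give 1 in 20 groups, or 2.5, for values with a normal spread. Counts need not have that spread, and in all 9 groups the library was the highest, so 2.5 is no measure of chance here. Among the members, Bcl2l11 stood at 152 normalised counts in Osmr-/- library 5, with the next library at 50.7. Bbc3 stood at 14.7 in Osmr-/- library 1, with the next at 2.36.

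In the wider pathway, Xiap was 2275 in wild-type library 6, with the next at 1407, and Perp was 19.5 in Osmr-/- library 6, where the others had 0. Cdkn1a was 121 in wild-type library 5, with the next at 55.8, and 107 in Osmr-/- library 3, with the next at 9.76. Btrc was 545 in wild-type library 1, with the next at 231, and 299 in Osmr-/- library 3, with the next at 106. The total of wild-type library 1 was 22.1 M reads, with the next at 13.6 M.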

How the results depend on the processing

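The 8 tested members gave 0 calls in either direction under all 24 alternatives, each fitted over all genes, with 1 to 4 of them at an unadjusted p under 0.05. The 4 came with libraries 1 to 3 alone, where 2933 of the 13358 genes were at that level. With libraries 4 to 6 alone it was 1 member and 1384 of the 13358 genes. Of 191 member values under alternatives with an adjusted p, 189 kept direction and side of the threshold; Bcl2 was -0.13 with libraries 4 to 6 alone and Mcl1 was 0.10 with libraries 1 to 3 alone. Leaving out 1 library moved some by over 1.5 times: Bcl2 to 0.23 and Bad to -0.36 without Osmr-/- library 3, Bcl2l1 to -0.79 without Osmr-/- library 2, Bid to -0.21 without wild-type library 1, and Mcl1 to -0.02 without wild-type library 5, -0.07 without Osmr-/- library 2, -0.24 without wild-type library 2 and -0.25 without wild-type library 3. The lowest member adjusted p was 0.109, for Bax by limma without Osmr-/- library 5, and over its alternatives that of Bax ran to 0.623. Over all genes, calls were few and varied. limma called 1 gene higher and 2 lower; with pseudocount 10 these were 13 and 42, with regularised log values 18 and 51, with variance stabilised values 17 and 49, with DESeq2 144 and 325, and with the sets of numbers as a covariate 133 and 204. edgeR and pseudocount 0.5 gave 1 lower each. Without the filter, with a filter at 50 and within either set alone, limma called 0 and 0, while unadjusted p-values were under 0.05 for 2779, 2122, 2933 and 1384 genes. Leaving out each library in turn gave 0 to 30 higher and 0 to 92 lower, the highest without wild-type library 6. With a replicate block the counts were 0 and 0 (2418 at an unadjusted p under 0.05); the labels do not say that same-numbered animals are paired, and their correlations ran from 0.02 to 0.10. In the wider pathway, DESeq2 gave 2 lower where limma gave 0. With the length of the longest transcript, and of the transcript with the longest coding sequence, levels per kb were 31.2 and 33.1 for Bcl2l1, 17.4 and 17.4 for Bcl2l11, 514 and 652 for Bax, 214.0 and 236 for Bid, and 364 and 384 for Bad; the cause is the shorter length divided by. The difference in library totals, -2.93 M reads, ran from -3.66 to -1.20 with each library left out, with an exact permutation p of 0.0317 without wild-type library 5 and 0.0476 without 6. Bbc3 without the filter had a log2 fold change of -1.43 by limma (adjusted p = 0.642), and for Pmaip1 the count of 0 does not exclude a level under its floor.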
